A study of Homo sapiens with 4 samples.

Results

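The genes described here encode major histocompatibility complex (MHC) class I molecules and the proteins that load them with peptide. They were taken as a list of 9: HLA-B, HLA-C, HLA-E, HLA-F, B2M, TAP1, TAP2, TAPBP and NLRC5. All 9 were looked up in an array table that holds 18417 genes with a probe set (the array's unit of measurement) annotated to 1 gene. B2M, NLRC5, TAP1, TAP2 and TAPBP, 5 of the 9, had such probe sets, 11 in all. HLA-B, HLA-C and HLA-F were annotated only to 6 probe sets that name a pair of genes, and these are given as pairs. HLA-E was named by no probe set in the annotation used and so was not analysed here.

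The cells came from 2 established human breast cancer lines, MDA-MB231 and Hs578T, both labelled basal-like. The 4 groups were MDA-MB231 expressing FBP1, MDA-MB231 control, Hs578T expressing FBP1 and Hs578T control, with 1 array of total RNA each. FBP1 encodes fructose-1,6-bisphosphatase, an enzyme of gluconeogenesis, and the FBP1 cells were selected as stable clones. How many clones an array holds, and what the control cells carry, is not stated in the labels. All cells grew in the same medium with serum and were collected in log-phase growth.

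Class I molecules carry peptides from proteins made inside the cell to the surface, where CD8 T cells read them. The heavy chain (HLA-B, HLA-C and others) pairs with beta-2-microglobulin, the product of B2M. Proteasomes cut the peptides, the TAP1-TAP2 transporter moves them into the endoplasmic reticulum, and tapasin, the product of TAPBP, holds the empty class I molecule next to the transporter. NLRC5 is a transcriptional activator of class I genes, and interferon raises most genes of this pathway. HLA-B, HLA-C, HLA-F, TAP1, TAP2 and TAPBP lie on chromosome 6, B2M on chromosome 15 and NLRC5 on chromosome 16.

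Promoters of 5 of these genes are shown because HLA-B, HLA-C and HLA-F share probe sets here, and because class I genes are known for a common set of upstream elements. Each line holds the 160 bases before the annotated start, 5′ to 3′ on the gene's strand, from RefSeq on GRCh38.p14. Capitals mark matches, on either strand, to the interferon-stimulated response element core (GAAANNGAAA), the interferon-gamma-activated site (TTCNNNGAA), the cyclic AMP response element core (TGACG) or the CCAAT box (CCAAT). The windows are chr6:31357180-31357339 on the minus strand for HLA-B, chr6:31272093-31272252 on the minus strand for HLA-C, chr6:29723274-29723433 on the plus strand for HLA-F, chr15:44711357-44711516 on the plus strand for B2M and chr6:32853705-32853864 on the minus strand for TAP1.
HLA-B: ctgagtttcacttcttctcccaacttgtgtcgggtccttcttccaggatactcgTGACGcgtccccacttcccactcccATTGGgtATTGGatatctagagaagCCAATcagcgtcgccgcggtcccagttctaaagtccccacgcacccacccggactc
HLA-C: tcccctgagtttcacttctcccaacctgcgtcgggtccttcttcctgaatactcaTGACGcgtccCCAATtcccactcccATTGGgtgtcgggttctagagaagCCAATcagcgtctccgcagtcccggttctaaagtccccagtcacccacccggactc
HLA-F: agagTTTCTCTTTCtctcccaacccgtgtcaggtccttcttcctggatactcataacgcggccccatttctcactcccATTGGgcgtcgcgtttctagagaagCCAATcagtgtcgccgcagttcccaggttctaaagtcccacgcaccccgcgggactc
B2M: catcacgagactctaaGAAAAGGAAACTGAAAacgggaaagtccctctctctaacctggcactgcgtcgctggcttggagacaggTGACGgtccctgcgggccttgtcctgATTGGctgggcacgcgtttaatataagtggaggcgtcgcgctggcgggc
TAP1: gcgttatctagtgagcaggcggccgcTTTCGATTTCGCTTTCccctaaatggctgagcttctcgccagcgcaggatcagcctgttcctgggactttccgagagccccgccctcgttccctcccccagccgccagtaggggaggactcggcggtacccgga

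Over the 250 bases before the start, HLA-B and HLA-C were identical at 226 of 246 aligned bases (91.9%). HLA-F was less like either, with 83.7% identity to HLA-B and 82.7% to HLA-C. Windows of 250 bases before to 50 after the start were given for 7 of the 9 genes, and NLRC5 and HLA-E had none. The interferon-stimulated core was found in 5 of the 7 genes (B2M, HLA-F, TAP1, TAP2 and TAPBP), against 3.57% of 35116 promoter windows of the same length. The cyclic AMP core was found in 4 (B2M, HLA-B, HLA-C and TAP2), against 24.6% of windows, and the CCAAT box in 5 (B2M, HLA-B, HLA-C, HLA-F and TAP1), against 34.6%. The interferon-gamma-activated site was found in 1 gene, in the other of the 2 TAP1 windows, against 7.66% of windows. These are exact matches of letters and say nothing of binding, and a near match was not counted. Members were counted by gene, over both windows for TAP1, whereas the shares are of windows. The annotated starts of TAP1 and of PSMB9, an immunoproteasome subunit, lie 488 bases apart on opposite strands.

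The introduced gene was higher in both FBP1 arrays. FBP1 stood at a log2 intensity of 13.07 in MDA-MB231 with FBP1 and 9.83 in its control, and at 13.35 in Hs578T with FBP1 and 6.35 in its control. Array medians lay between 7.83 and 7.86. All 5 measured markers of basal-like epithelium passed the filter level of 6.16, below which probe sets were not tested. EGFR lay at 10.6 to 11.1, KRT14 at 8.45 to 9.62, CDH3 at 6.94 to 8.18, TRIM29 at 6.71 to 7.15 and KRT5 at 6.80 to 6.93. Of 7 luminal markers 6 passed, and 3 were called higher in MDA-MB231, KRT8 (10.4-fold), EPCAM (8.25-fold) and GATA3 (1.77-fold), while ESR1 lay at 6.64 to 6.80 on the 4 arrays. Of 6 mesenchymal markers 5 were called lower in MDA-MB231, THY1 (39.1-fold higher in Hs578T), COL1A2, COL1A1, FAP and PDGFRB, and VIM was at 13.7 on all 4 arrays. Of 9 measured leukocyte markers, 5 passed the filter. TYROBP lay at 8.70 to 8.99, CD83 at 7.90 to 8.38 and CD14 at 7.41 to 8.30. ITGAX (6.96 to 7.16) and ITGAM (6.69 to 6.91) lay lower. PTPRC (4.52 to 4.96), CD3E (5.69 to 6.12), LYZ and FCER1G did not pass. In RNA from whole cultures, fewer cells with a transcript and less transcript per cell cannot be told apart. Intensities of different probe sets are not compared with each other, because probes differ in how they bind.

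Transcripts of the heavy chains and of the peptide transporter were more abundant in MDA-MB231 than in Hs578T. Tapasin followed by a smaller margin. B2M and NLRC5 did not pass the test. Line differences are MDA-MB231 minus Hs578T on the log2 scale with standard errors, from a limma fit over all 16837 single-gene probe sets that passed the filter, with terms for line and construct and Benjamini-Hochberg adjustment at 0.05. With 1 array per group, the p-values measure mainly how far the lines differ in their response to FBP1, and nothing states that cultures were repeated. Of the 11 single-gene probe sets, all of which passed the filter, 9 were called and all 9 were higher in MDA-MB231, but these are 3 genes, and the 3 TAP1 probe sets hold equal values. Of all probe sets tested, 22.1% were called higher in MDA-MB231 and 40.6% in either direction. Taken as 1 probe set per gene, 3 of 5 genes were called (60.0%), against 40.8% of all genes tested. The median line difference was 0.38 over the 5 genes, against -0.02 over all genes, and 0.80 over the 11 probe sets, against -0.01 over all probe sets.

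**Figure D1:**
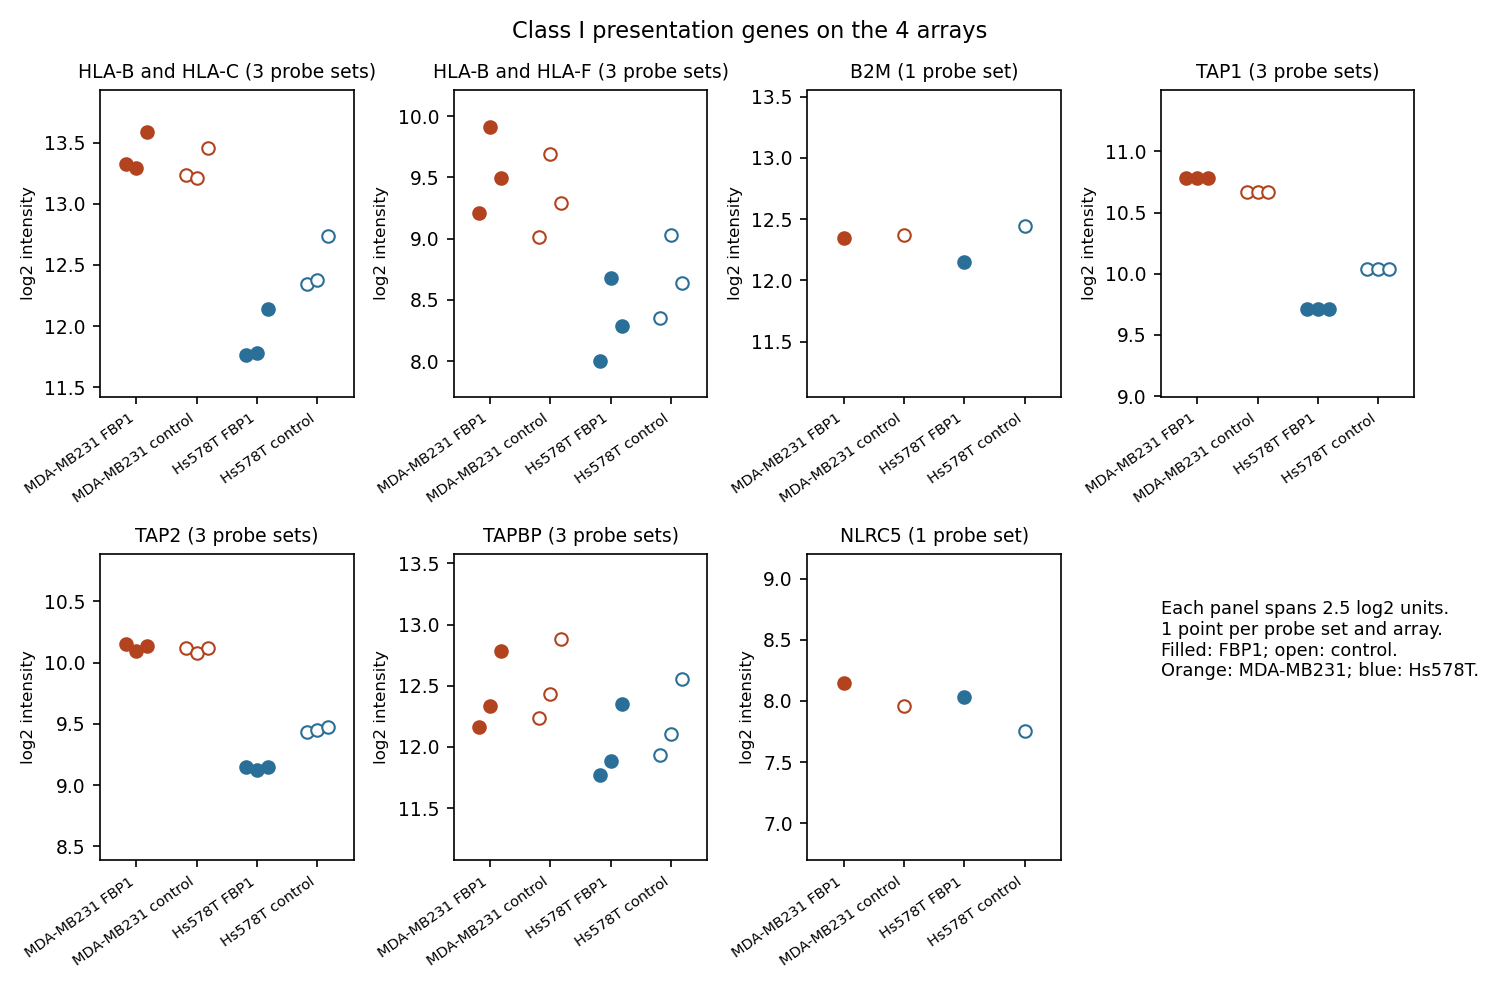
Log2 intensity (y axis) of each probe set on the 4 arrays (x axis), 1 point per probe set and array, with no error bars since each group is 1 array; filled points are FBP1 arrays and open points controls, and every panel spans 2.5 log2 units. For TAP1, both MDA-MB231 arrays (10.78 and 10.67) lie above both Hs578T arrays (9.71 and 10.04), whereas the B2M arrays of the lines overlap. The share of all probe sets on which the lines separate was not counted.

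The widest gap between the lines was that of the probe sets shared by HLA-B and HLA-C. Probe set 8124911 stood at 13.32 in MDA-MB231 with FBP1 and 13.24 in its control, and at 11.76 in Hs578T with FBP1 and 12.35 in its control. Its line difference was 1.22 ± 0.16, or 2.34-fold (limma, adjusted p = 0.00571). The other probe sets of the pair gave 1.17 ± 0.16 (8178498, adjusted p = 0.00657) and 1.08 ± 0.17 (8179731, adjusted p = 0.00951). On all 3, both MDA-MB231 arrays lay above both Hs578T arrays. The share of all probe sets on which the lines separate in this way was not counted. These fits come from the wider table of 24973 probe sets that also holds those with several genes or none, of which 18.4% were called higher in MDA-MB231. HLA-B and HLA-C differ in sequence between people, and how well the probes match the alleles of each line was not tested.

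HLA-F encodes a class I molecule of more limited variation that can reach the surface without peptide. What HLA-F and HLA-B each add to the probe sets they share cannot be told apart. Probe set 8177717 stood at 9.92 in MDA-MB231 with FBP1 and 9.69 in its control, and at 8.68 in Hs578T with FBP1 and 9.03 in its control. Its line difference was 0.95 ± 0.16, or 1.93-fold (limma, adjusted p = 0.0113). Probe sets 8117760 and 8179019 both gave 0.93 (1.90-fold, adjusted p = 0.0114, and 1.91-fold, adjusted p = 0.0117). All 6 heavy chain probe sets were thus called higher in MDA-MB231. The 3 probe sets of a pair name the same genes and are not independent measurements.

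B2M, the partner of every heavy chain, was not called between the lines, and its gap was not tested against that of the heavy chains. Its single probe set (7983360) stood at 12.34 in MDA-MB231 with FBP1 and 12.37 in its control, and at 12.15 in Hs578T with FBP1 and 12.45 in its control. The arrays of the lines overlapped, with the Hs578T control the highest and Hs578T with FBP1 the lowest. The line difference was 0.06 ± 0.09 (limma, adjusted p = 0.658). Among the alternatives run, it passed the threshold only without the Hs578T control array (0.20, adjusted p = 0.0467).

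The transporter genes differed between lines by nearly the same amount. TAP1 stood at 10.78 in MDA-MB231 with FBP1 and 10.67 in its control, and at 9.71 in Hs578T with FBP1 and 10.04 in its control. Its 3 probe sets (8125512, 8178867 and 8180061) hold the same values on every array and count as 1 measurement. The line difference was 0.85 ± 0.13, or 1.80-fold (limma, adjusted p = 0.00406). TAP2 (8125483) stood at 10.15 in MDA-MB231 with FBP1 and 10.12 in its control, and at 9.15 in Hs578T with FBP1 and 9.43 in its control. Its line difference was also 0.85 (± 0.12, 1.80-fold, adjusted p = 0.00281), and its other probe sets gave 0.80 (8178841, adjusted p = 0.00387) and 0.82 (8180034, adjusted p = 0.00358). For both genes, the 2 MDA-MB231 arrays lay close together and above both Hs578T arrays, a separation not counted over all probe sets.

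Tapasin was higher in MDA-MB231 by a smaller step. TAPBP probe set 8180166 stood at 12.79 in MDA-MB231 with FBP1 and 12.88 in its control, and at 12.35 in Hs578T with FBP1 and 12.55 in its control. Its line difference was 0.38 ± 0.07, or 1.31-fold (limma, adjusted p = 0.00722). Probe sets 8178977 and 8125713 gave 0.39 ± 0.08 and 0.35 ± 0.08, and both were called, the second at an adjusted p of 0.0154. The lines did not overlap on any of the 3, which was likewise not counted over all probe sets. Without the MDA-MB231 FBP1 array the 3 differences were 0.38 to 0.44 and no longer called (adjusted p = 0.0697 to 0.0937), and without the MDA-MB231 control array they were 0.31 to 0.34 (adjusted p = 0.127 to 0.158). Calls over all probe sets also fell in those fits, to 3675 and 3436, against 6839.

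NLRC5, the activator of class I genes, was not called between the lines either, and its gap was not tested against that of the heavy chains. Its probe set (7995926) stood at 8.15 in MDA-MB231 with FBP1 and 7.96 in its control, and at 8.03 in Hs578T with FBP1 and 7.75 in its control. The lines overlapped, and the difference between them was 0.16 ± 0.10 (limma, adjusted p = 0.268).

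**Figure D2:**
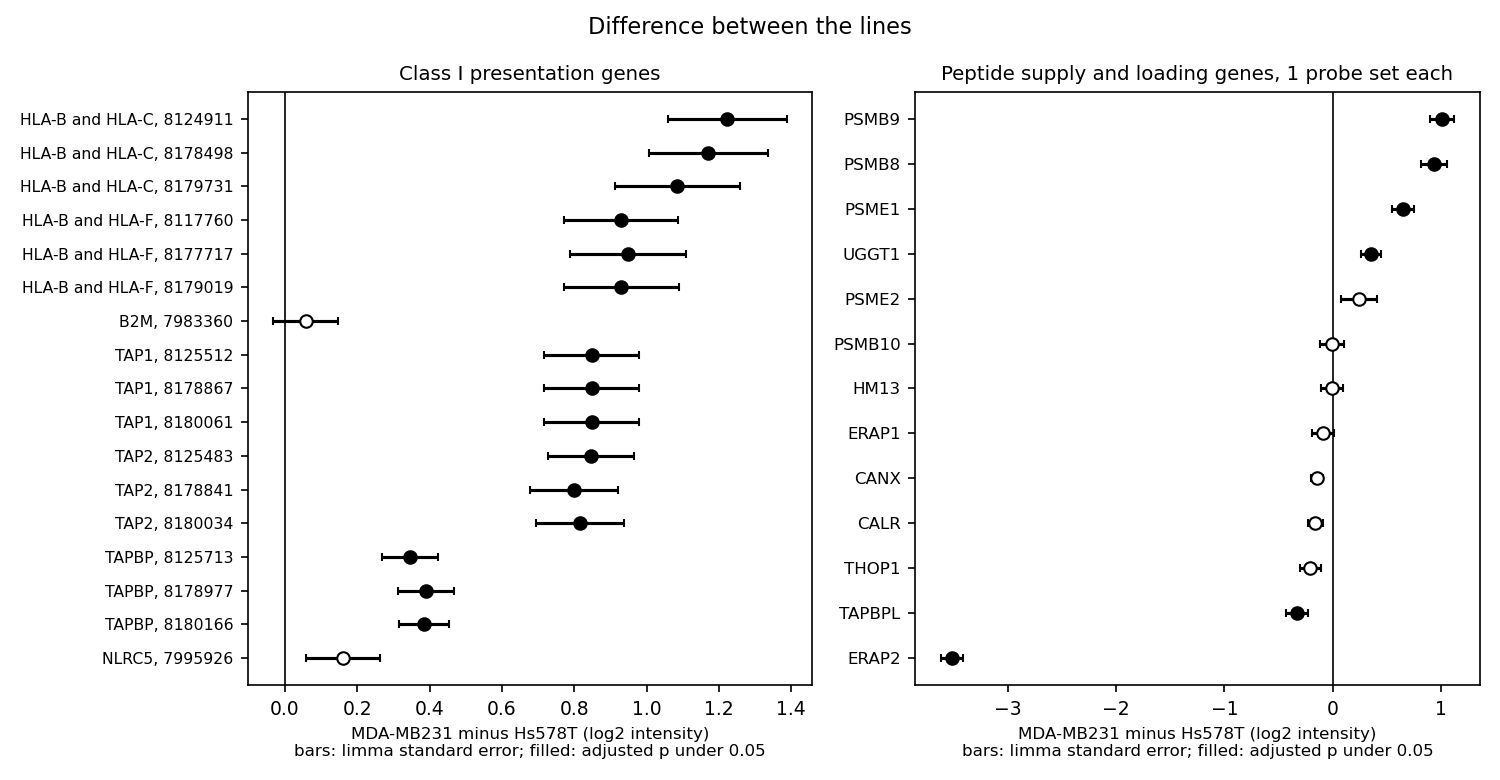
Line difference (MDA-MB231 minus Hs578T, log2 intensity, x axis) of each class I probe set (left) and of 13 peptide supply and loading genes with 1 probe set each (right, on a wider axis); bars are limma standard errors, and filled points have an adjusted p under 0.05. The heavy chain and transporter probe sets lie furthest right on the left panel, TAPBP nearer to 0, and B2M (0.06) and NLRC5 (0.16) are open, while ERAP2 lies at -3.51 on the right panel.

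The gap between the lines was wider on the FBP1 arrays than on the controls for the heavy chains and the transporter. For HLA-B and HLA-C it was 1.44 to 1.56 log2 between FBP1 arrays, against 0.72 to 0.89 between control arrays. For HLA-B and HLA-F it was 1.20 to 1.23 between FBP1 arrays, against 0.65 to 0.67 between control arrays. TAP1 differed by 1.06 between FBP1 arrays and by 0.63 between control arrays. For B2M the sign differed, with 0.19 between FBP1 arrays and -0.07 between control arrays. For NLRC5 the gap was 0.12 between FBP1 arrays and 0.21 between control arrays. Whether FBP1 acts differently in the lines cannot be tested here, since no residual degree of freedom is left for that term.

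FBP1 against control was therefore described line by line, from 1 array each and with no test. In MDA-MB231 the single-gene probe sets differed by -0.09 to 0.19 and the shared heavy chain probe sets by 0.08 to 0.22. In Hs578T those of the heavy chains, B2M, TAP1, TAP2 and TAPBP were lower with FBP1 than in the control, at -0.59 to -0.17. The central 95% of all probe sets tested was narrower in MDA-MB231 (-0.32 to 0.33) than in Hs578T (-0.50 to 0.46). NLRC5 was higher with FBP1 in both lines. No single-gene probe set differed by 1.5-fold in either line and either direction. The share of all probe sets tested that did was 0.327% higher and 0.339% lower in MDA-MB231, and 1.35% higher and 1.66% lower in Hs578T.

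The largest differences were those of HLA-B and HLA-C in Hs578T. In MDA-MB231, probe sets 8124911, 8178498 and 8179731 differed by 0.08, 0.08 and 0.13, inside the central 95% of all probe sets tested in that line (-0.32 to 0.33). In Hs578T each of the 3 differed by -0.59, lower with FBP1 and only just past the 1.5-fold mark at 0.585. The central 95% of all probe sets tested ran from -0.50 to 0.46 in Hs578T, so these 3, which are not independent, lay outside it. Both ranges are over the single-gene probe sets tested, which leave out the shared ones. The probe sets of HLA-B and HLA-F differed by 0.19 to 0.22 in MDA-MB231 and by -0.36 to -0.35 in Hs578T. All 6 were thus higher with FBP1 in MDA-MB231 and lower with FBP1 in Hs578T. Both pairs name HLA-B, so the 6 are not independent. The share of all probe sets with these signs was not counted.

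Smaller differences of the same direction were seen in Hs578T for the light chain and the loading genes. B2M differed by -0.03 in MDA-MB231 and by -0.29 in Hs578T. TAP1 differed by 0.11 in MDA-MB231 and by -0.32 in Hs578T. TAP2 differed by 0.01 to 0.03 in MDA-MB231 and by -0.33 to -0.28 in Hs578T. These genes and the heavy chains were thus all lower with FBP1 in Hs578T, and each value of the single-gene probe sets lay within the central range of its line. TAPBP, like B2M, had values below 0 in both lines, at -0.09 to -0.08 in MDA-MB231 and -0.22 to -0.17 in Hs578T. NLRC5 stood apart, at 0.19 in MDA-MB231 and 0.28 in Hs578T.

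**Figure D3:**
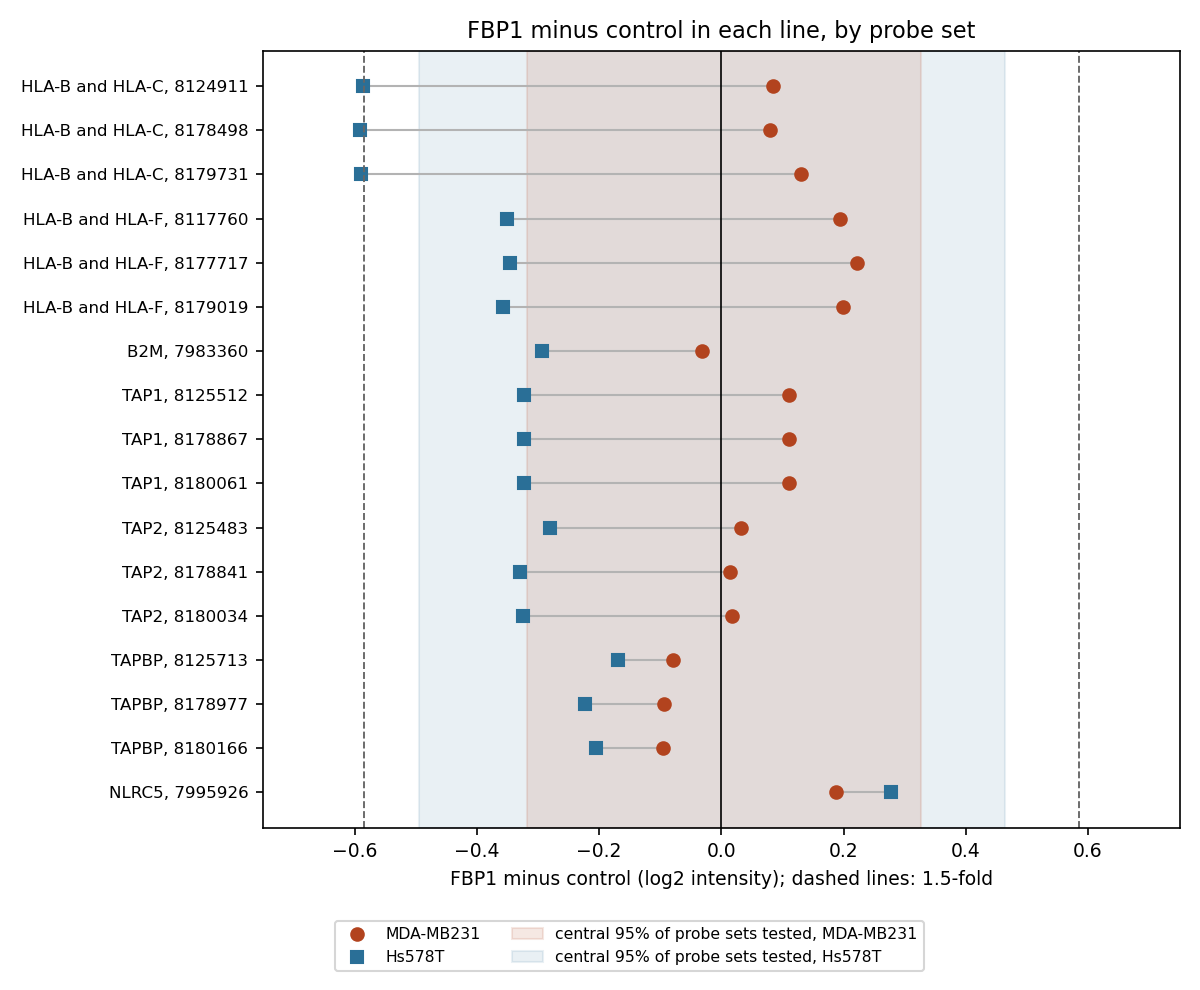
FBP1 minus control (log2 intensity, x axis) of each probe set (y axis) in MDA-MB231 (circles) and Hs578T (squares), 1 array per group with no error. Shaded bands are the central 95% of all single-gene probe sets tested in each line, and dashed lines mark 1.5-fold. The 3 probe sets of HLA-B and HLA-C lie at 0.08 to 0.13 in MDA-MB231 and at -0.59 in Hs578T, outside its band, and NLRC5 lies right of 0 in both lines.

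Counted over the 11 single-gene probe sets, 4 lay below 0 in MDA-MB231, against 51.9% of all probe sets tested, and 10 lay below 0 in Hs578T, against 45.1% of all. Their median was 0.02 in MDA-MB231, against -0.01 over all probe sets, and -0.29 in Hs578T, against 0.02 over all. At a smaller mark of 0.32 log2, none of the 11 was higher (2.61% of all) or lower (2.41%) with FBP1 in MDA-MB231. In Hs578T none was higher (6.31% of all) and 5 were lower, namely the 3 equal TAP1 probe sets and 2 of TAP2, against 6.56% of all. These 5 lay at the edge of the mark (0.3219), with TAP1 at -0.3231 and TAP2 at -0.3300 (8178841) and -0.3251 (8180034). After quantile normalization TAP1 stood at -0.3128 and these TAP2 probe sets at -0.32188 and -0.3165, all short of the mark. Taken as 1 probe set per gene, 2 of 5 genes lay below 0 in MDA-MB231 and 4 of 5 in Hs578T. Of 6 mesenchymal markers, 3 were below 0 in each line, with medians of 0.03 in MDA-MB231 and -0.13 in Hs578T. FAP was the 1 past 1.5-fold, with a difference of 0.13 in MDA-MB231 and -1.34 in Hs578T. Of 5 basal-like markers, 3 were below 0 in MDA-MB231 and 0 in Hs578T, with medians of -0.13 and 0.21 in those lines. KRT14 was the 1 of them past 1.5-fold, at -0.19 in MDA-MB231 and 0.77 in Hs578T. Of 6 luminal markers, 4 were below 0 in MDA-MB231 and 1 in Hs578T. KRT18 was at 0.07 in MDA-MB231 and 0.38 in Hs578T. The part of these marker differences in the class I results was not tested.

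Over both lines together, FBP1 gave no call, and the introduced gene itself was not called (adjusted p = 0.943) although it was far higher with FBP1 in each line. A count of 0 here does not show that nothing changed. The share of probe sets called was 0.0% (0 of 16837, limma, smallest adjusted p 0.942), with 859 at an unadjusted p under 0.05 and none of the 11 among them. NLRC5 came nearest, at 0.23 ± 0.10 (unadjusted p = 0.0638, adjusted p = 0.942). It was higher with FBP1 in both of 2 lines, and the share of all probe sets that were was not counted. B2M had a value of -0.16 over both lines (adjusted p = 0.947). The heavy chain probe sets ran from -0.26 to -0.06 (adjusted p = 0.926 to 0.980). These average values of opposite sign in the lines.

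Genes that supply and trim peptides did not share 1 direction between the lines. Of 13 such genes tested out of 15 listed, 4 were called higher and 2 lower in MDA-MB231 (46.2% called), with a median of 0.00. Over all 15946 genes tested at 1 probe set per gene, 40.8% were called, 3475 higher and 3025 lower. The immunoproteasome subunits PSMB8 and PSMB9 were higher in MDA-MB231 by 0.93 (adjusted p = 0.00181) and 1.01 (adjusted p = 0.00103), close to the value of TAP1. PSME1, a subunit of the proteasome activator PA28, was higher by 0.65 (adjusted p = 0.00370). ERAP2, an aminopeptidase that trims peptides in the endoplasmic reticulum, went the other way by -3.51, or 11.4-fold higher in Hs578T (adjusted p = 6.58e-06).

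The FBP1 differences of these supply genes did not all follow those of the transporter. Of the 13 tested, 9 lay below 0 in MDA-MB231, against 51.8% of all genes, and 5 in Hs578T, against 45.1%. PSMB8 differed by -0.14 in MDA-MB231 and 0.19 in Hs578T, and PSMB9 by -0.09 in MDA-MB231 and 0.17 in Hs578T, each opposite in sign to TAP1 in the same line. PSME2, the partner of PSME1, differed by -0.37 in MDA-MB231 and 0.32 in Hs578T, with no line difference called (0.24, adjusted p = 0.307). HM13, the signal peptide peptidase, differed by -0.07 in MDA-MB231 and -0.37 in Hs578T. No gene of the list reached 1.5-fold in either line. The list's median was -0.08 in MDA-MB231, against -0.01 over all genes tested, and 0.07 in Hs578T, against 0.02 over all.

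**Figure D4:**
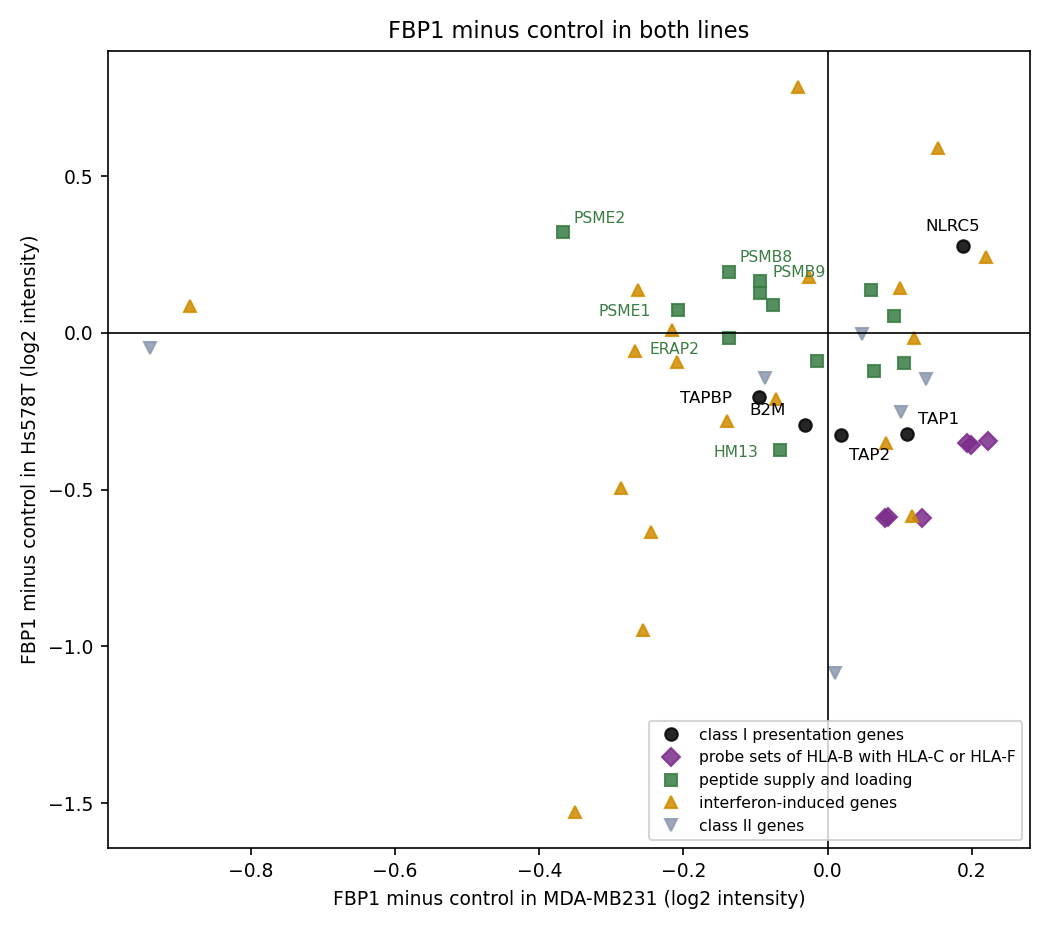
FBP1 minus control (log2 intensity) in MDA-MB231 (x axis) against Hs578T (y axis), 1 point per gene or shared probe set, from 1 array per group with no error. The heavy chain probe sets, TAP1 and TAP2 lie right of 0 and below 0, PSMB8, PSMB9 and PSME2 lie left of 0 and above 0, and NLRC5 lies above 0 in both.

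Class I related genes, many of them ligands of natural killer receptors, were called between the lines about as often as all genes. Of 10 tested out of 13 listed, 1 was called higher and 3 lower in MDA-MB231 (40.0% called, against 40.8% of all genes), with a median of 0.07. MICB, a stress-induced ligand of the receptor NKG2D, was higher in MDA-MB231 by 2.67, or 6.36-fold (adjusted p = 3.41e-05). ULBP1, another NKG2D ligand, was 6.29-fold higher in Hs578T (-2.65, adjusted p = 3.88e-05), and MR1, which presents vitamin metabolites, was also higher there (-1.35, adjusted p = 0.000567). ULBP2 was lower in MDA-MB231 by -0.65 (adjusted p = 0.0445). With FBP1, ULBP2 differed by 0.23 in MDA-MB231 and by -0.62 in Hs578T, the 1 value of the list past 1.5-fold. MICA differed by -0.24 in MDA-MB231 and -0.58 in Hs578T, and PROCR, the protein C receptor, by 0.41 in MDA-MB231 and 0.13 in Hs578T.

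Regulators of class I transcription and of interferon signalling gave calls in both directions, as did all genes. Of 19 tested out of 22 listed, 3 were higher and 6 lower in MDA-MB231 (47.4% called, against 40.8% of all genes), with a median of -0.05. NFYA, a subunit of the factor that binds the CCAAT box, was higher in MDA-MB231 by 0.83 (adjusted p = 0.000961). The kinase JAK2 was 4.67-fold higher in Hs578T (-2.22, adjusted p = 3.85e-05), and the interferon receptor subunits IFNGR1 (-0.79, adjusted p = 0.00162), IFNAR1 (-0.64, adjusted p = 0.00335) and IFNAR2 (-0.57, adjusted p = 0.0205) were also higher there. IRF1, an activator of TAP1 and PSMB9, was not called (0.34, adjusted p = 0.0616). None reached 1.5-fold with FBP1 in either line; IFNAR2 came nearest, at -0.03 in MDA-MB231 and -0.51 in Hs578T.

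Interferon-induced and class II genes were mostly higher in MDA-MB231. Of 19 interferon-induced genes tested out of 20 listed, 14 were called higher and 2 lower (84.2% called, against 40.8% of all genes), with a median of 1.39. BST2, a protein that tethers viruses to the cell, was higher by 2.76 and IFI27 by 2.29 (adjusted p = 0.000107 and 8.35e-05). IFI44, also higher in MDA-MB231 (1.53, adjusted p = 0.00525), differed with FBP1 by -0.35 in MDA-MB231 and -1.53 in Hs578T. IFI27 differed by 0.15 in MDA-MB231 and 0.59 in Hs578T. At 1.5-fold with FBP1, 0 genes of the list were higher and 1 lower in MDA-MB231, and 2 were higher and 3 lower in Hs578T. Of all 15946 genes, 48 were higher and 52 lower by that size in MDA-MB231, and 222 higher and 269 lower in Hs578T. Class II molecules present peptides to CD4 T cells. Of 6 class II genes tested out of 8 listed, 5 were called higher in MDA-MB231 (83.3%), with a median of 2.22. HLA-DPB1 was higher by 3.76 (adjusted p = 7.55e-06), HLA-DPA1 by 3.41 (adjusted p = 0.000180) and HLA-DMA by 2.61 (adjusted p = 3.44e-05). With FBP1, HLA-DPA1 differed by 0.01 in MDA-MB231 and -1.09 in Hs578T. All 6 class II genes tested lay below 0 in Hs578T (median -0.15), against 45.1% of all genes. In MDA-MB231, 2 of them did (median 0.03), against 51.8% of all. At 1.5-fold, 1 class II gene was lower in each line. Of the 19 interferon-induced genes, 13 lay below 0 in MDA-MB231 and 11 in Hs578T. Among 5 leukocyte markers tested, 2 were called higher in MDA-MB231 (CD14 and CD83), which is 40.0% against 40.8% of all genes, and their part in these line differences was not tested.

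The genes whose values over the 4 arrays were most like each member were found by the largest difference on any array after centring on the mean of the 4. They were BMPR2 for B2M (largest difference 0.01 log2), TMEM42 for NLRC5 (0.03), ZKSCAN3 for TAP1 (0.03), STK38 for TAP2 (0.03) and NR2C2 for TAPBP (0.02). Such likeness was common with 4 arrays: 353 of 15945 genes lay within 0.1 log2 of B2M on every array, 302 of TAPBP, 241 of NLRC5, 46 of TAP2 and 38 of TAP1.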

How the data were processed

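Total RNA was measured on Affymetrix arrays, 1 per line and construct. The authors deposited log2 intensities of 33297 probe sets, the scale being judged from the values (2.40 to 14.81). Affymetrix Expression Console 1.1.2800.28061 was used, per the submitters' processing notes, and how it normalized the arrays is not stated there. Samples were grouped by the titles in the labels.

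Through the platform annotation, 19460 probe sets had 1 gene, 1754 several and 12083 none, and 19429 matched a current gene ID. Probe sets with means below the 25th percentile (log2 6.16) were left out. limma 3.58.1 in R 4.3.3 fitted line and construct with an intensity trend. The 1 residual degree of freedom was moderated by a prior of 4.86. The fit was run on simulated arrays with set line differences and independent noise. Those held no effect of FBP1 and no difference between the lines in it, so the run does not check the p-values where such differences exist. Line served as the block, pairing FBP1 and control arrays by cell line as labelled. Within a line, differences were counted by size at 1.5-fold. List genes had 1 probe set each, that of highest mean.

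The class I genes and the gene lists were chosen with earlier results of these data known. Named genes were all class I members, FBP1, marker genes, and from each list up to 6 genes (3 for interferon-induced and class II) with the largest line or FBP1 difference in turn. Alternatives covered the filter, normalization, variance prior, probe set choice, the block and each array left out.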

Additional observations from a re-analysis of the deposited data

Results flagged for a closer look

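Among the class I genes and the genes of the lists that passed the filter, differences between FBP1 and control that had opposite signs in the lines, each at least 0.1 log2 in size, are listed here. Each rests on 1 array per group, and these contrasts between lines were not tested. The share of all genes with such opposite signs was not counted. The values are the FBP1 difference in MDA-MB231 minus that in Hs578T. Positive values, lower with FBP1 in Hs578T and higher in MDA-MB231, were 0.72 for HLA-B and HLA-C probe set 8179731, 0.43 for TAP1, and 0.54, 0.57 and 0.56 for HLA-B and HLA-F probe sets 8117760, 8177717 and 8179019. FAP gave 1.47, ULBP2 0.85, IFIT2 0.70, HLA-DMA 0.35 and HLA-DPB1 0.28. HLA-DPB1 had other probe sets, and over its 3 the Hs578T difference ran from -0.83 to -0.13. Negative values, higher with FBP1 in Hs578T and lower in MDA-MB231, were -0.96 for KRT14, -0.69 for PSME2, -0.48 for CDH3, -0.40 for OAS3, -0.36 for NFYC, -0.35 for ULBP3, -0.33 for PSMB8, -0.32 for NFKB1 and -0.31 for IRF1. IFIT2, OAS3, NFYC, ULBP3 and NFKB1 lie outside the rule for named genes and were added after their values were seen.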

How the results depend on the processing

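The count of 9 single-gene probe sets called between lines was 6 to 10 with each array left out. It was 6 without either MDA-MB231 array, where TAPBP stood at 0.31 to 0.44 and lost its calls, and 10 without the Hs578T control array, where B2M was called (0.20, adjusted p = 0.0467). B2M stood at -0.09 without the Hs578T FBP1 array, and the cause was not tested. Over all probe sets, 6839 calls became 3436 without the MDA-MB231 control array and 3675 without the MDA-MB231 FBP1 array. These fits drop the construct term, since 3 arrays leave no residual degree of freedom with it. Under the other alternatives with a test, line differences ran from 0.83 to 0.85 for TAP1, 0.78 to 0.85 for TAP2 and 0.32 to 0.39 for TAPBP, all called. With no test, FBP1 arrays alone gave 1.06 for TAP1, 0.97 to 1.00 for TAP2 and 0.39 to 0.45 for TAPBP, and control arrays alone 0.63, 0.63 to 0.69 and 0.30 to 0.33 for these genes. Lowering the size mark to 0.32 log2 moved the count of probe sets lower with FBP1 in Hs578T to 5, against 0. Those 5 lay at the edge of that mark and fell short of it after quantile normalization. FBP1 over both lines gave 0 calls under every alternative run, also with no replicate block (0). Quantile normalization and median centring of the shared HLA probe sets were chosen after seeing the data. Background per array is not given, so how far signal over background limits the precision is unknown.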
